A study of Mus musculus with 47 samples.

Results

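Transcripts of 10 genes that mark macrophages were followed in B78-D14 melanomas of the mouse, grown from cells with and without a truncating mutation of mitochondrial DNA. The genes are Csf1r, Adgre1, Trem2, Mrc1, Cd163, C1qa, C1qb, C1qc, Apoe and Cd68. They were taken by name as established macrophage markers, with earlier results of these data known. All 10 were found among the 56748 genes of the count table through the mouse GENCODE annotation. B78-D14 is an amelanotic, Cdkn2a-deficient derivative of the B16 melanoma line, and its mitochondrial gene Mt-Nd5, which encodes a subunit of respiratory complex I, was edited with DdCBE base editors to create premature stop codons. RNA came from fragments of subcutaneous tumors grown from control cells (4 tumors) and from cells with the m.12,436G>A change in 40% (m.12,436 40%, 7 tumors) or 60% (m.12,436 60%, 7 tumors) of their mitochondrial genomes. Cultured control cells and cultured cells with m.11,944G>A in 60% (4 cultures each) served as background. Cultures of the m.12,436 lines, tumors of the m.11,944 lines and a further, separately numbered set of control tumors of the series were not analysed here.

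The hosts of all tumors were immunocompetent male C57BL/6 mice with unedited mitochondrial DNA, so the edited genome was in the grafted cells and not in the macrophages of the host. Cultures and tumors were untreated, and mice were killed when the tumor reached 15 mm. The age of the mice is given as about 8 weeks at injection in the animal methods and as 10 to 16 weeks in the reporting summary. The edited lines are populations, and the stated heteroplasmy is that of the cells before grafting. Libraries held between 16475735 and 36173502 counted reads. The labels do not say whether each tumor came from its own mouse, so the p values measure the spread between these tumors. In bulk RNA, fewer macrophages and less RNA per macrophage cannot be told apart.

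Macrophages in tumors arise mainly from blood monocytes that enter the tissue and mature under the cytokine CSF1, whose receptor is CSF1R. Mature cells carry the adhesion receptor F4/80 (Adgre1), scavenger and pattern receptors such as CD206 (Mrc1) and CD163, and the lipid-sensing receptor TREM2, which signals through the adaptor TYROBP. They are also a main source of the complement component C1q, an assembly of the chains encoded by C1qa, C1qb and C1qc, and they secrete apolipoprotein E and fill their late endosomes and lysosomes with the glycoprotein CD68. Mrc1 and Cd163 are typical of resident and alternatively activated macrophages, whereas C1q, Apoe and Trem2 are shared by many tumor-associated macrophages. Several of these genes are not exclusive to macrophages: Apoe is made by other cell types, CD68 is found at low level in many cells, and Mrc1 is carried by some endothelial cells.

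The C1q genes are the members that moved most closely together from tumor to tumor, and they lie next to each other on chromosome 4. Their upstream sequences, 250 bases ending just before the start of the canonical transcript, are shown because the genes share a neighbourhood and a pattern of levels. All lie on the minus strand of GRCm39, at chr4:136626162-136626411 for C1qa, chr4:136613512-136613761 for C1qb and chr4:136620377-136620626 for C1qc. Capitals mark GAGGAA, a core of sites for the myeloid factor PU.1 (encoded by Spi1), on either strand (TTCCTC where it is on the other strand).
C1qa: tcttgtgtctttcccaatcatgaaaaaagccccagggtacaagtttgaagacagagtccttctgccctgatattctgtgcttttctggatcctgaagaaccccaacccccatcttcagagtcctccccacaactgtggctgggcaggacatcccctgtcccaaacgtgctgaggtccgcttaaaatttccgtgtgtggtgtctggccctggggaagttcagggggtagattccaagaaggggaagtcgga
C1qb: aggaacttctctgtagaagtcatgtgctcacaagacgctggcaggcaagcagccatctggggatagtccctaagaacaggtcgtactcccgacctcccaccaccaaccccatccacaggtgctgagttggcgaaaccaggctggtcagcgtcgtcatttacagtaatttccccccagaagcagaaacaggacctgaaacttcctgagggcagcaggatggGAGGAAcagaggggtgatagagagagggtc
C1qc: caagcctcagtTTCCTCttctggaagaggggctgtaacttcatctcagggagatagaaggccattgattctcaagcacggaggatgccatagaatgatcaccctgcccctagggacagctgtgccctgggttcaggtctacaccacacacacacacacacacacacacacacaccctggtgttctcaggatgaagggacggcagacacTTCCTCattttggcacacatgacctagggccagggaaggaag
The hexamer was present in C1qb, where it begins 30 bases before the start, and in C1qc, where it begins 42 and 239 bases before the start, and these letters were not in the window of C1qa. Of 9 marker genes searched in the same way (all but Csf1r), 6 held the hexamer (Adgre1, Cd68, C1qb, C1qc, Mrc1 and Trem2). Of 21247 protein-coding promoters of the same length, 23.0% held it. The AP-1 heptamer TGACTCA, whose reverse complement is TGAGTCA and which does not overlap with the hexamer, was found in 1 of the 9 genes (Cd68) and in 4.05% of all promoters. These counts describe letters in a window and not bound sites.

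In the cultures, the marker genes were at or near 0 reads, and all 10 were read in every tumor. C1qa, C1qb, C1qc and Cd163 had 0 reads in all 8 cultures. Adgre1 had at most 1 read in any culture, Trem2 at most 5 and Csf1r at most 9. The remaining markers were present at a low level: Mrc1 had between 0 and 55 reads, Apoe between 7 and 46, and Cd68 between 36 and 57. Ptprc, which encodes the pan-leukocyte protein CD45, had at most 1 read in a culture. Of 7 genes of the melanocyte lineage, 1 had enough reads to be tested in the cultures, whose line the paper describes as amelanotic.

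**Figure D1:**
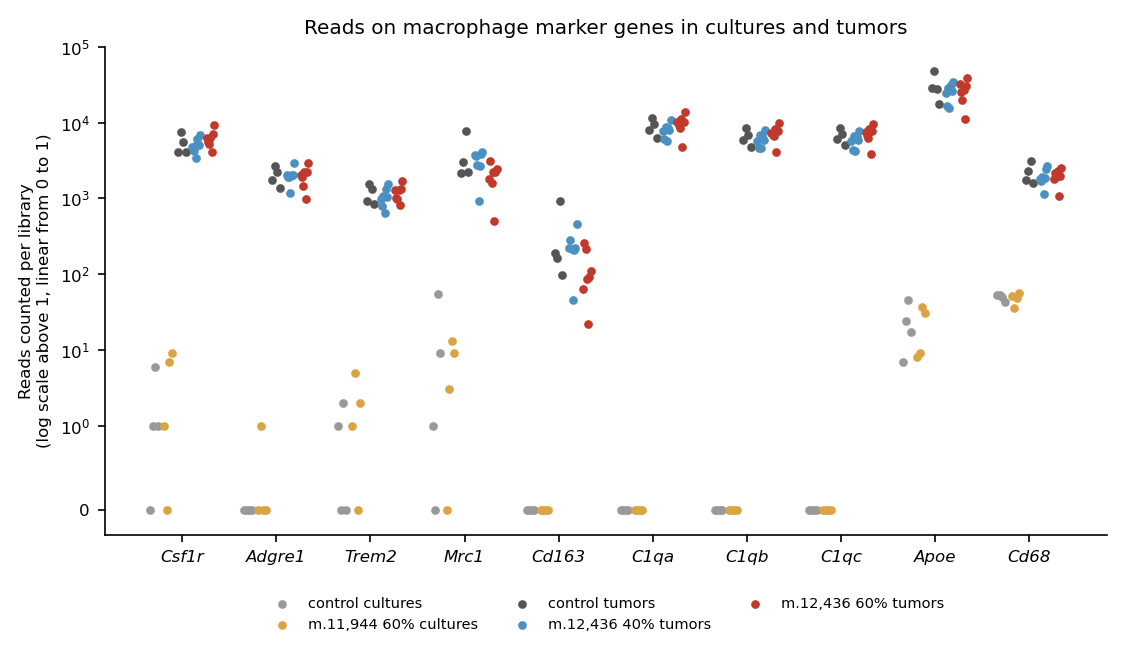
Reads counted per library (vertical axis, log scale above 1 and linear from 0 to 1) on each of the 10 marker genes in control cultures, m.11,944 60% cultures, control tumors, m.12,436 40% tumors and m.12,436 60% tumors, 1 point per library. The tumors lie above the cultures for all 10 genes, and C1qa, C1qb, C1qc and Cd163 are at 0 in all 8 cultures.

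Against control cultures, all 10 markers were higher in control tumors in edgeR's quasi-likelihood test with Benjamini-Hochberg adjustment, with adjusted p between 1.59e-07 (Cd68) and 0.000794 (Cd163), and the 4 control tumors lay above the 4 control cultures for all 10. In that comparison 65.2% of all 15047 genes tested passed the threshold of an adjusted p under 0.1 and 35.3% passed it as higher in tumors, while the groups did not overlap for 56.9%. Where all 4 control cultures were at 0 reads, 3 reads over the 4 cultures together were taken as the limit. Levels in control tumors, as reads scaled to library size, were then at least 11309-fold higher for C1qa, at least 8569.6-fold higher for C1qc, at least 8333-fold higher for C1qb, at least 2569-fold higher for Adgre1 and at least 439-fold higher for Cd163. For markers with reads in cultures, the ratio was 2542 for Csf1r (95% counting interval 1290.3 to 5889), 1247 for Apoe (1019 to 1544) and 223 for Mrc1 (175 to 289). Trem2 had a ratio of 1484 that rests on 3 culture reads (508 to 7194). The smallest ratio was that of Cd68, at 42.6 (37.1 to 49.2). These intervals cover counting error only. Leaving out control culture 3, which held 55 of the 65 Mrc1 reads of the control cultures, moved the log2 difference of Mrc1 from 7.80 to 9.87, that of Csf1r from 11.23 to 12.55 and that of Trem2 from 10.31 to 11.15. The bound for Cd163 rests largely on control tumor 3, which held 928 of the 1380 Cd163 reads of the control tumors, and without it the fitted log2 difference went from 11.28 to 10.25. With DESeq2, 9 of the 10 markers passed and Mrc1 was given no p value.

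Between m.11,944 60% and control cultures, Cd68 and Apoe were the 2 markers with enough reads to be tested. Cd68 differed by 0.00 ± 0.22 on the log2 scale (SE, adjusted p = 1.0) and Apoe by -0.05 ± 0.61 (adjusted p = 1.0), in a comparison in which 0.0387% of 12930 genes passed. With the culture number as a block, 919 genes passed in place of 5, and neither marker was among them.

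Within tumors the markers covered a wide range of levels. Given as CPM, read counts scaled by TMM to a common library size, Apoe was the most abundant, with 1072 ± 258 CPM (SD, n = 18 tumors), followed by C1qa (355 ± 61.4), C1qb (267 ± 40.3), C1qc (263 ± 41.7) and Csf1r (224 ± 38.5). Per kilobase of the canonical transcript (RPKM), the order of levels was Apoe (491 ± 118), C1qa (326 ± 56.5), C1qc (142 ± 22.5), C1qb (105 ± 15.9), Cd68 (67.2 ± 9.82), Trem2 (42.0 ± 6.42), Csf1r (37.0 ± 6.37), Adgre1 (23.7 ± 4.02), Mrc1 (20.2 ± 9.44) and Cd163 (1.88 ± 1.55). Each gene was above the next in 18 of 18 tumors, except for Adgre1 and Mrc1, where Adgre1 was the higher in 13 of 18. The order also depends on the length used: over the union of all annotated exons, Trem2 had a mean of 9.24 RPKM and lay below Mrc1 (14.1), and C1qb (42.7) lay below Cd68 (58.8).

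The spread between tumors was unequal among the markers. Csf1r, Adgre1, Trem2, C1qa, C1qb, C1qc, Apoe and Cd68 differed between the lowest and the highest of the 18 tumors by between 1.62-fold (Trem2) and 2.75-fold (Apoe). Mrc1 differed by 9.77-fold and Cd163 by 26.5-fold.

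Macrophage markers did not pass the test of a difference between mutant and control tumors, in either direction. At 60% heteroplasmy the means of Csf1r and of the 3 C1q genes were 1.12- to 1.25-fold those of control tumors, the means of Adgre1, Cd68, Apoe and Trem2 were 0.917- to 1.11-fold, and those of Mrc1 and Cd163 were 0.577 and 0.403 of control with wide intervals. At 40% heteroplasmy the fitted folds lay between 0.757 (Cd163) and 1.05 (Adgre1). By count, 0 of 10 markers passed at 60% against control, where 2.31% of 16213 genes passed (156 higher and 218 lower). At 40% against control 0 of 10 passed, as did 0.0% of all genes by edgeR's test, with 825 genes at an unadjusted p under 0.05 and 5 genes passing with DESeq2. At 60% against 40%, 0 of 10 passed, where 1.81% of all genes did (132 higher and 161 lower). An unadjusted p under 0.05 was found for 3 of 10 markers at 60% against control (Csf1r, Mrc1 and Cd163; 16.3% of all genes), for 0 of 10 at 40% (5.09%) and for 4 of 10 at 60% against 40% (Csf1r, C1qa, C1qb and C1qc; 14.1%). No marker had groups without overlap in the 3 tumor comparisons, where 4.07%, 0.45% and 0.623% of all genes did. The 3 comparisons share tumors with each other. Positive log2 differences were found for 6, 2 and 7 of the 10 markers in the 3 comparisons, beside 49.4%, 51.3% and 48.9% of all genes. The median log2 difference of the 10 markers was 0.10 at 60% against control, -0.08 at 40% against control and 0.13 at 60% against 40%, beside a median of about 0 over all genes in each.

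Of the receptors, Csf1r showed the clearest difference at 60% heteroplasmy. CSF1R is the receptor through which CSF1 and IL-34 keep macrophages alive. Csf1r levels in the control tumors were 187, 247, 185 and 193 CPM (tumors 1 to 4). The m.12,436 40% tumors ranged from 177 through a median of 203 to 235 CPM, and the m.12,436 60% tumors from 213 through 244 to 327 CPM. At 60%, 3 of 7 tumors lay above all control tumors and 5 of 7 above all 40% tumors, while the control group reached into the 60% group only through tumor 2. The log2 difference from control was 0.32 ± 0.11 (SE; 253 ± 39.6 CPM against 203 ± 29.9), with an unadjusted p of 0.0104 and an adjusted p of 0.167 in edgeR's test, so Csf1r did not pass. It was 0.30 ± 0.10 against the 40% tumors (adjusted p = 0.142) and 0.02 ± 0.11 between 40% and control tumors (adjusted p = 0.997). With DESeq2 in place of edgeR, Csf1r passed at 60% against control (adjusted p = 0.089) and against 40% (adjusted p = 0.0724). In edgeR fits that left out 1 tumor, it passed against control in 1 of 11, without control tumor 2 (adjusted p = 0.0605). Against 40% tumors it passed in 0 of 14 such fits. Of the exonic bases of Csf1r, 19.8% overlap exons of a gene on the opposite strand, and whether reads were assigned by strand is not given in the sources used here.

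**Figure D2:**
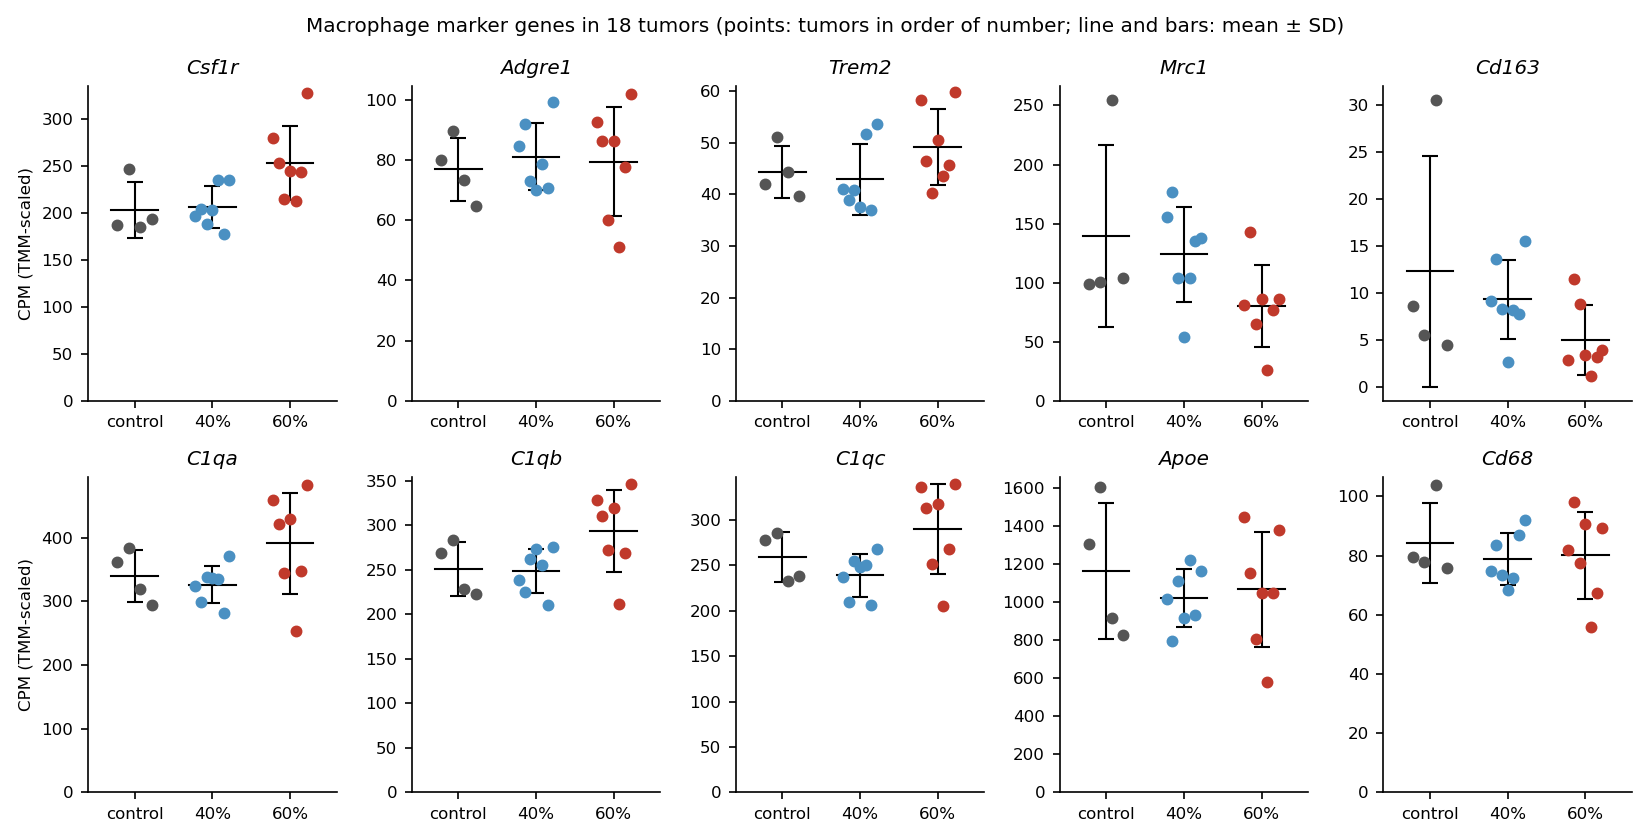
CPM after TMM scaling (vertical axes, from 0) of each marker gene in control, m.12,436 40% and m.12,436 60% tumors, 1 point per tumor, with a line at the mean and bars of 1 SD. Csf1r, Adgre1, Trem2 and the C1q genes have their highest tumors at 60%, where Adgre1, C1qa and C1qc also have their lowest. For Mrc1 (255 CPM) and Cd163 (30.5 CPM), 1 control tumor stands apart.

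Adgre1, which encodes F4/80, the antigen most used to identify mouse macrophages, had nearly the same level in the 3 groups. Control tumors had 79.9, 89.6, 73.3 and 64.8 CPM. The 40% tumors ranged from 70.1 through 78.7 to 99.1 CPM and the 60% tumors from 51.1 through 86.4 to 102 CPM, so that the 60% group spanned the other two. The log2 difference at 60% against control was 0.05 ± 0.15 (adjusted p = 0.913), with a 95% interval of -0.28 to 0.37.

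Trem2, the lipid-sensing receptor, had 42.1, 51.2, 44.3 and 39.6 CPM in control tumors, 37.0 to 53.6 (median 40.9) at 40% and 40.3 to 59.8 (median 46.5) at 60%. The 60% tumors overlapped both other groups, with 2 of 7 above all control tumors. The log2 difference was 0.15 ± 0.12 against control (adjusted p = 0.555) and 0.20 ± 0.10 against 40% (adjusted p = 0.401).

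Mrc1 and Cd163 had lower means at 60%, and both differences shrank without 1 control tumor. Mrc1 (CD206, a mannose receptor) had 98.5, 101, 255 and 104 CPM in control tumors, 54.1 to 177 (median 135) at 40% and 26.1 to 143 (median 80.8) at 60%. Control tumor 3 was the highest of all 18, and 6 of 7 tumors at 60% lay below all 4 control tumors. The log2 difference at 60% was -0.79 ± 0.37 against control (unadjusted p = 0.0466, adjusted p = 0.299) and -0.62 ± 0.32 against 40% (adjusted p = 0.401). Cd163, the scavenger receptor for haemoglobin bound to haptoglobin, had 8.63, 5.46, 30.5 and 4.48 CPM in control tumors, 2.67 to 15.5 (median 8.31) at 40% and 1.15 to 11.5 (median 3.38) at 60%. The tumor at 30.5 CPM was again control tumor 3, and the groups overlapped. The log2 difference was -1.31 ± 0.58 against control (unadjusted p = 0.0373, adjusted p = 0.273) and -0.91 ± 0.51 against 40% (adjusted p = 0.446). Without control tumor 3, the differences from control were -0.32 for Mrc1 and -0.31 for Cd163. Cd163 is the rarest marker, with 22 to 928 reads per tumor.

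Of the secreted proteins, the 3 chains of C1q had their highest levels in 60% tumors. C1qa had 362, 383, 319 and 295 CPM in control tumors, 281 to 371 (median 335) at 40% and 254 to 483 (median 421) at 60%. C1qb had 269, 284, 228 and 223 CPM in control tumors, 211 to 276 (median 256) at 40% and 212 to 347 (median 311) at 60%. C1qc had 278, 286, 233 and 238 CPM in control tumors, 206 to 268 (median 248) at 40% and 205 to 339 (median 313) at 60%. For each chain, 4 of 7 tumors at 60% lay above all control and all 40% tumors, and tumor 5 was the lowest of the 60% group. Against control, the log2 differences were 0.20 ± 0.13 for C1qa (adjusted p = 0.458), 0.23 ± 0.11 for C1qb (adjusted p = 0.318) and 0.16 ± 0.12 for C1qc (adjusted p = 0.509). Against 40% tumors they were 0.26 ± 0.11 (adjusted p = 0.292), 0.24 ± 0.10 (adjusted p = 0.248) and 0.28 ± 0.10 (adjusted p = 0.197). None passed. Against 40% tumors each chain passed in 1 of the 14 fits that left out 1 tumor. That was the fit without tumor 5 of the 60% group, with adjusted p of 0.0841, 0.0934 and 0.0658. Of the reads on the 3 genes, C1qa took 40.0 ± 0.793% in control tumors, 40.1 ± 0.558% at 40% and 40.0 ± 1.12% at 60%. The share of C1qb was 29.2 to 29.8% in control tumors, 29.9 to 31.9% at 40% and 29.3 to 31.6% at 60%. That of C1qc was 29.9 to 31.5%, 28.6 to 29.8% and 29.0 to 30.5%. For C1qb and C1qc, control and 40% tumors thus did not overlap, by small steps that were not tested.

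Apoe, which carries lipids out of macrophages, had 1305, 1606, 919.8 and 829 CPM in control tumors, 796 to 1221 (median 1017) at 40% and 583 to 1448 (median 1051) at 60%. The 3 groups overlapped, and 2 of the 4 control tumors were above all 40% tumors. The log2 difference was -0.13 ± 0.21 at 60% (adjusted p = 0.813) and -0.19 ± 0.21 at 40% (adjusted p = 0.96). Exons on the opposite strand overlap 12.9% of the exonic bases of Apoe, 8.76% of those of Trem2 and 8.64% of those of C1qc.

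Cd68, the lysosomal marker, had 79.6, 77.8, 104 and 75.7 CPM in control tumors, 68.3 to 92.1 (median 74.7) at 40% and 55.9 to 98.0 (median 81.9) at 60%. Control tumor 3 was the highest of the 18. The log2 difference was -0.07 ± 0.13 at 60% (adjusted p = 0.815), with a 95% interval of -0.34 to 0.19, and -0.10 ± 0.13 at 40% (adjusted p = 0.96).

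**Figure D3:**
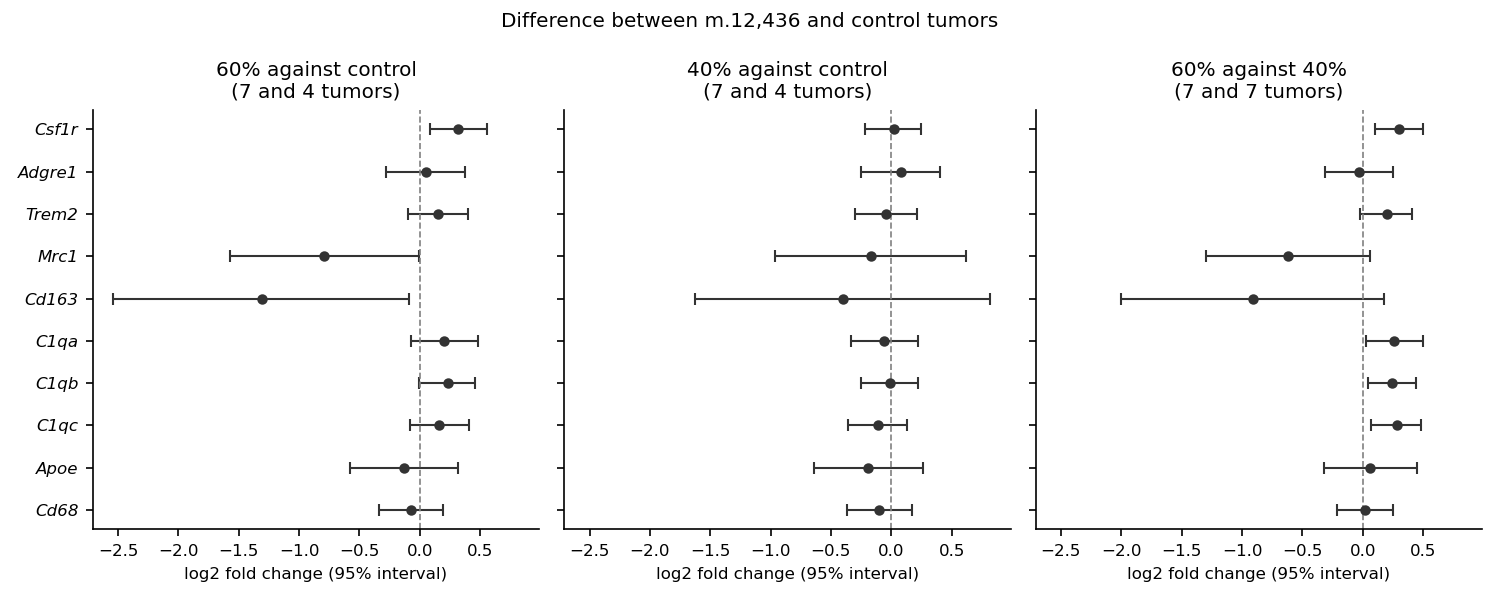
Log2 fold change (horizontal axis) of each marker gene with its 95% interval from the fit over 18 tumors, for m.12,436 60% against control, 40% against control and 60% against 40%. Csf1r lies above 0 in both comparisons of the 60% tumors (0.32 and 0.30), and Mrc1 and Cd163 lie lowest with the widest intervals.

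Other genes linked to these markers were examined in lists compiled by function, and not all of them are particular to macrophages. In the cultures, 7 of 11 genes of the CSF1R list had enough reads to be tested. The same held for 11 of 14 of the TREM2 list and 6 of 10 of the complement list. Tumor levels of such genes can include RNA of the melanoma cells, which was not separated. Among 18 further genes of macrophages and mononuclear phagocytes, all 18 had a positive log2 difference at 60% against control with a median of 0.26, and 1 passed. That gene was Itgam (CD11b, the integrin chain of myeloid cells), which rose from 63.5 ± 5.95 CPM in control to 82.7 ± 7.00 CPM in 60% tumors (log2 difference 0.38 ± 0.08, adjusted p = 0.0261). Against 40% tumors, 3 of the 18 rose: Itgam (0.42 ± 0.07, adjusted p = 0.00611), Lyz2 (lysozyme, 0.52 ± 0.13, adjusted p = 0.0744) and Msr1 (a scavenger receptor, 0.35 ± 0.09, adjusted p = 0.0908). At 60% against control, Lyz2 was at 0.15 ± 0.16 (adjusted p = 0.658) and Msr1 at 0.17 ± 0.11 (adjusted p = 0.456). At 40% against control, 0 of the 18 passed, and 11 were positive. There Lyz2 was at -0.37 ± 0.15 and Msr1 at -0.18 ± 0.11 (adjusted p = 0.924 for each), so their difference from 40% tumors includes lower means at 40% than in control. Itgam passed against 40% tumors in each of the 14 fits that left out 1 tumor, and against control in 10 of 11, the exception being without control tumor 1 (adjusted p = 0.114). Lyz2 and Msr1 each passed against 40% tumors in 5 of the 14, and Lyz2 did not pass when only those groups were fitted (adjusted p = 0.105).

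Of the ligands and lineage factors around CSF1R, Csf2ra, a chain of the GM-CSF receptor, rose at 60% against control (0.67 ± 0.17, adjusted p = 0.0614). Against 40% tumors Csf2ra rose (0.55 ± 0.14, adjusted p = 0.0751), as did Irf8, a factor of monocyte and dendritic cell development (0.46 ± 0.12, adjusted p = 0.0828). Csf2ra did not pass against control without control tumor 1 (adjusted p = 0.191), without control tumor 3 (adjusted p = 0.30) or without tumor 1, 4 or 7 of the 60% group (adjusted p = 0.114, 0.111 and 0.111). Against 40% tumors Csf2ra and Irf8 each kept their calls in 5 of 14 fits that left out 1 tumor.

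Around TREM2, a list of 14 adaptor and lipid-handling genes gave 0 that rose and 1 that fell at 60% against control, Cd9, a tetraspanin (-0.48 ± 0.11, adjusted p = 0.0355, but 0.129 without control tumor 1 and 0.219 without control tumor 3), with a list median near 0. Tyrobp, the TREM2 adaptor, was at 0.23 ± 0.09 (adjusted p = 0.232). Of 10 complement genes around C1q, 0 passed, and the median was 0.39. C3ar1, a receptor for the fragment C3a, was at 0.32 ± 0.14 (adjusted p = 0.258).

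The lists of activation states differed in their medians. Of 14 classical-activation genes, 13 were positive at 60% against control with a median of 0.71 and 1 rose, Irf5 (0.63 ± 0.16, adjusted p = 0.0614), which promotes inflammatory macrophage genes and did not pass without control tumor 1 (adjusted p = 0.171), without control tumor 3 (adjusted p = 0.305) or without tumor 1, 4 or 7 of the 60% group (adjusted p = 0.114, 0.116 and 0.111). Against 40% tumors Irf5 also rose (0.54 ± 0.13, adjusted p = 0.0674) and kept its call in 8 of 14 fits that left out 1 tumor. Of the 12 alternative-activation and tissue-resident genes with enough reads, 5 were positive with a median of -0.23, and 0 passed. Selenop was at -0.51 ± 0.17 (adjusted p = 0.154). Against 40% tumors the medians were 0.61 and -0.09, and at 40% against control they were 0.16 and -0.20. Among control tumors, tumor 3 had the lowest summed level of the classical list (444 CPM, group median 841). It also had the highest of the alternative list (1264 CPM, group median 810.4). The list medians are given from the main fit only, which includes this tumor.

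Genes of several other leukocytes also had higher means at 60%. Ptprc had 73.0 ± 18.6 CPM in control tumors, 79.7 ± 14.3 at 40% and 112 ± 26.9 at 60%, a log2 difference at 60% against control of 0.61 ± 0.19 that did not pass (adjusted p = 0.135). Among 6 pan-leukocyte genes, 6 were positive and 1 rose, Itgb2, the integrin partner of Itgam (0.61 ± 0.16, adjusted p = 0.0726, and 0.77 ± 0.13 against 40% tumors, adjusted p = 0.011). Against control, Itgb2 did not pass without control tumor 1 or 3 or without tumor 1, 2, 4 or 7 of the 60% group (adjusted p up to 0.339), and against 40% tumors it passed in each of 14 such fits. The monocyte list was positive for 6 of 6 genes with a median of 0.57, its summed level ranging from 353 to 514 CPM in control, 334 to 555 at 40% and 550.5 to 733 at 60%, and 0 genes passed. The list of T and NK cells was positive for 12 of 12 genes with a median of 0.76 and summed levels of 16.7 to 49.1, 17.5 to 38.1 and 17.5 to 89.8 CPM, and 0 passed. Dendritic cell genes had a median of 0.32 and neutrophil genes, of which 5 of 8 had enough reads, a median of -0.13, with 0 passed in each. Fibroblast (-0.08), endothelial (-0.21) and skeletal muscle (-0.05) lists had 0 genes passed. Against 40% tumors, 0 of 7 muscle genes were positive, with a median of -0.75 and 0 passed. The summed muscle level ranged from 48.5 to 339.6 CPM at 40% (median 171) and from 2.47 to 368 CPM at 60% (median 2.9). Of the melanocyte list 2 of 7 genes had enough reads and 1 fell, the pigment-granule gene Pmel (-2.21 ± 0.51, adjusted p = 0.0456). Without control tumor 3 the difference of Pmel was -0.56 (adjusted p = 0.559), and with limma-voom its adjusted p was 0.199.

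Relative to Ptprc, all 10 markers had lower means in 60% than in control tumors, which was described and not tested. The log2 level of C1qa minus that of Ptprc was 2.25 ± 0.33 in control tumors, 2.05 ± 0.26 at 40% and 1.81 ± 0.17 at 60% (SD), and that of Csf1r was 1.50 ± 0.24, 1.38 ± 0.27 and 1.20 ± 0.21. For Adgre1 the values were 0.10 ± 0.34, 0.04 ± 0.38 and -0.49 ± 0.22. The widest steps were those of Mrc1 (0.84 ± 1.01, 0.58 ± 0.79 and -0.58 ± 0.64) and Cd163 (-2.98 ± 1.58, -3.23 ± 0.97 and -4.76 ± 1.07). With the log2 level of Ptprc as a covariate, the difference of Csf1r at 60% against control was 0.07 ± 0.11 and those of the other 9 markers lay between -0.52 (Apoe) and -0.04 (C1qb), none passing, while 16 of all genes passed in place of 374. The calls given above for Itgam, Itgb2, Lyz2, Msr1, Csf2ra, Irf8, Irf5, Cd9 and Pmel were all lost with this covariate, with adjusted p from 0.123 (Itgam against 40% tumors) to 0.819 (Pmel). The part of leukocyte content in these differences was not tested otherwise.

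Among tumors of 1 group, the markers moved together to unequal degrees. Deviations of log2 CPM from the group mean were correlated over the 18 tumors for 45 pairs of markers. The points share libraries, dissection and the cells sampled, and the values are given as a description. Pearson's r had a median of 0.70. It was 0.97 to 0.98 between the C1q chains, 0.87 to 0.91 between them and Apoe, and 0.87 between Csf1r and Trem2. Mrc1 and Cd163 correlated with each other (0.84) and with Cd68 (0.86 and 0.77), and much less with C1qb (0.22 and 0.12) or Csf1r (0.17 and -0.02). The sets were not separate: Adgre1 correlated with C1qa (0.85) and also with Cd68 (0.62) and Mrc1 (0.60), and C1qa had an r of 0.56 with Cd68 and 0.40 with Mrc1.

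**Figure D4:**
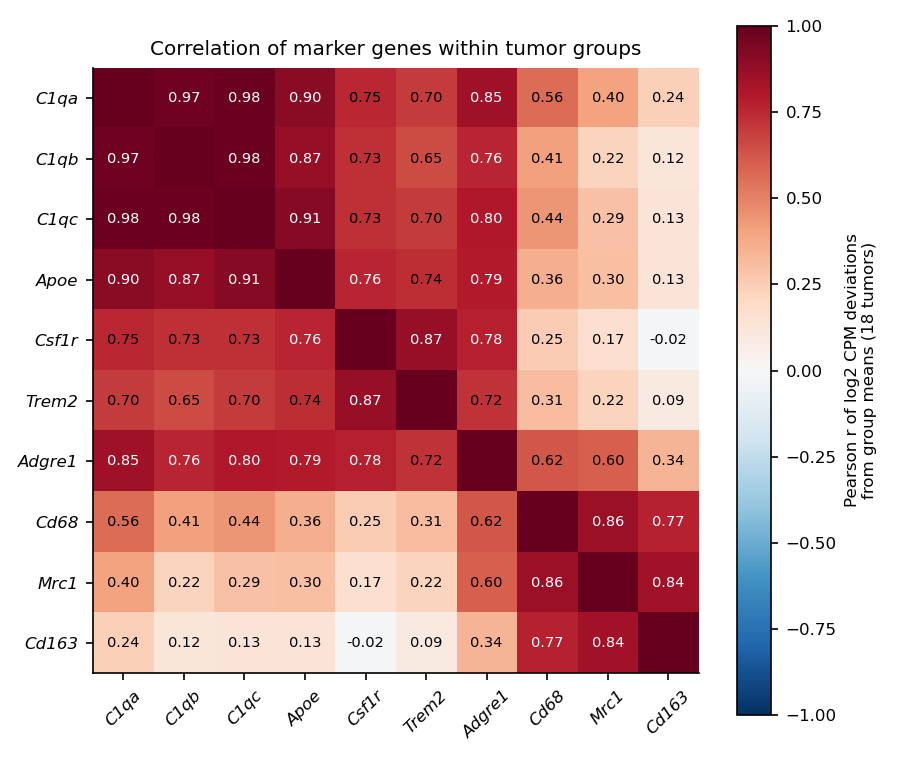
Pearson's r between marker genes (both axes), computed over 18 tumors from log2 CPM deviations from group means, with the value in each cell and the color scale from -1 to 1. The C1q chains and Apoe form 1 block (0.87 to 0.98) and Cd68, Mrc1 and Cd163 another (0.77 to 0.86).

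Single tumors showed which markers were high together. Control tumor 3 was the highest of its group in Cd68, Mrc1 and Cd163 and the lowest in Csf1r and C1qc, whereas control tumor 2 was the highest in the other 7 markers. In the 60% group, tumor 2 was the highest in Cd68, Mrc1 and Cd163, tumor 7 in 6 markers (Csf1r, Adgre1, Trem2 and the C1q chains), and tumor 5 the lowest in 9 of 10, all but Trem2. Ptprc was 51.0 CPM in control tumor 3 and 95.8 in control tumor 2, the lowest and the highest of the control tumors.

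The genes most like the 10 markers over the 18 tumors, by mean r with all of them, were Rhoh (0.70), C4b (0.70), Spi1 (0.69), Irak3 (0.69), Adgrd1 (0.69), Aoah (0.69), Anxa2r1 (0.69), Cotl1 (0.69), Traf1 (0.68) and Pi16 (0.68). Spi1 encodes PU.1, whose core letters were searched above, and C4b encodes a complement component that acts after C1q. Of these 10 genes, 0 passed at 60% against control, and Spi1 was at 0.34 (adjusted p = 0.188). Cotl1 had up to 481 reads in a culture, while Spi1 had at most 2.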

How the data were processed

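Bulk RNA of cultures and tumor fragments was sequenced by GeneWiz. The authors aligned reads to GRCm39 with STAR, counted them on Ensembl genes with featureCounts and deposited raw counts per gene, without normalization. Of 47 columns, 26 were matched to samples and 21 were not used. Counts were scaled by TMM, filtered with filterByExpr and tested with edgeR 4.0.16 (robust quasi-likelihood, two-sided, R 4.3.3), in one fit over 18 tumors and in separate fits with cultures, and p values were adjusted by Benjamini-Hochberg over all genes tested (threshold 0.1). The study used limma-voom, run here as an alternative with limma 3.58.1, beside DESeq2 1.42.0. Simulated data were used to check the fits. Same-numbered cultures deviated together (r 0.718 to 0.832 in 4 pairs across genes), so a block on the number was also fitted. RPKM used canonical transcripts of GENCODE M39, in which 56017 of 56748 genes were found. The exon length was settled after values had been seen. The markers were named in all comparisons; from each other list, genes past the threshold and up to 2 with the smallest p were named, and 10 genes by likeness. Some results of these lists are not reported here. Markers, lists and tests were chosen with earlier results of these data known. Promoters were read from GRCm39. Alternatives also covered scaling, filters, the groups fitted, a Ptprc covariate and left-out samples.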

Additional observations from a re-analysis of the deposited data

Results flagged for a closer look

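In control tumors, 4 values stood apart from the other 3 of their group by Dixon's criterion, in which the gap to the nearest value is divided by the range of the group. They were Mrc1 in tumor 3 (255 CPM, nearest 104), Cd163 in tumor 3 (30.5 CPM, nearest 8.63), Cd68 in tumor 3 (104 CPM, nearest 79.6) and Csf1r in tumor 2 (247 CPM, nearest 193). The ratios were 0.964, 0.841, 0.863 and 0.867, above the 95% critical value for 4 samples. Of 30 groups of values examined, 4 were so marked, where chance marks about 1 in 20, and 3 of the 4 belong to the same tumor and to genes that moved together. Without control tumor 3, the log2 difference between 60% and control tumors was -0.32 for Mrc1, -0.31 for Cd163 and 0.05 for Cd68. Without control tumor 2 it was 0.43 for Csf1r, with an adjusted p of 0.0605 in edgeR's test.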

How the results depend on the processing

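The control group held 4 tumors, Cd163 had as few as 22 reads in a tumor, and the counts of genes passing moved with single tumors. At 60% against control, 374 genes passed in edgeR's test. The count was 1056 with DESeq2, 943 with only the 2 groups compared, 178 with a replicate block, 16 with Ptprc as a covariate, 150 at an adjusted p under 0.05, 51 without control tumor 3 and 60% tumor 5 (chosen after seeing the data), and 66 to 724 when 1 tumor was left out. At 60% against 40% (293 genes), it was 744 with DESeq2, 178 with no filter beyond 1 count, 35 with the covariate, 113 at 0.05 and 108 to 452 with 1 tumor left out. At 40% against control (0 genes), it was 5 with DESeq2 and 0 to 4 with 1 tumor left out. In cultures (5 genes), it was 84 with DESeq2, 919 with the replicate block, 0 with at least 10 counts in every sample and 0 to 0 with 1 culture left out. Tumor numbers do not pair the tumors (mean r of same-numbered tumors between -0.156 and -0.00582), and the block changed no call of a marker. The block did end the calls of Cd9 and Pmel against control and of Msr1 against 40% (adjusted p = 0.119 to 0.234), and with no filter beyond 1 count those of Csf2ra, Irf5, Itgb2 and Pmel against control and of Csf2ra, Irf5, Irf8, Lyz2 and Msr1 against 40% were lost (adjusted p = 0.107 to 0.204). Passing markers numbered 1 with DESeq2 and 0 to 1 with 1 tumor left out at 60% against control, 1 with DESeq2 and 0 to 3 with 1 tumor left out at 60% against 40%, and 1 of 10 in control tumors against cultures with at least 10 counts in every sample, a filter that only Cd68 met.

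Signs of small differences changed. With Ptprc as a covariate, 60% against control gave -0.19 for Adgre1, -0.088 for C1qa, -0.038 for C1qb, -0.10 for C1qc and -0.053 for Trem2, 60% against 40% gave -0.024 for Cd68 and -0.27 for Apoe, and 40% against control gave -0.03 for Csf1r and 0.044 for Cd163. The block at 40% gave -0.018 for Csf1r and 0.033 for C1qb, Cd68 was 0.12 at 60% against control without the pair of tumors above, and Cd68 in cultures was -0.0024 with no filter. The cause was not tested. With 1 tumor left out, 60% against control ranged from -0.02 to 0.13 for Adgre1, -0.13 to 0.051 for Cd68 and -0.25 to 0.074 for Apoe. At 40% against control the ranges were -0.02 to 0.14 (Csf1r), -0.13 to 0.028 (Cd68), -0.11 to 0.014 (C1qa), -0.054 to 0.062 (C1qb), -0.31 to 0.30 (Mrc1), -0.66 to 0.60 (Cd163), -0.31 to 0.014 (Apoe), -0.10 to 0.042 (Trem2) and -0.01 to 0.29 (Ptprc). At 60% against 40% they were -0.10 to 0.049 (Adgre1), -0.03 to 0.092 (Cd68) and -0.025 to 0.16 (Apoe), and in cultures -0.089 to 0.093 (Cd68) and -0.57 to 0.36 (Apoe).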
